A study of Mus musculus with 12 samples.

Results

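Rmrp and Rpph1 encode the RNA subunits of RNase MRP and RNase P, a pair of related ribozymes. Both genes were followed across 12 ChIP-seq libraries of mouse liver, and they were chosen by name, as the stretch that covers Rmrp on chromosome 4 and the stretch that covers Rpph1 on chromosome 14. Each is 1 stretch and 1 region of 442 in the deposited files. RNase P removes the leader from tRNA precursors and RNase MRP cuts a precursor of ribosomal RNA. RNA polymerase III (Pol III) makes both RNAs from promoters that lie wholly upstream of the transcribed sequence (type 3), with a proximal sequence element, a TATA-like element and a distal element that often holds an octamer. Both genes lie head to head with a protein-coding gene read by RNA polymerase II (Pol II): Rmrp with Ccdc107, which encodes a coiled-coil protein, and Rpph1 with Parp2, which encodes a poly(ADP-ribose) polymerase of DNA repair.

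Livers came from male C57/BL6 mice of 12 to 14 weeks, kept for 2 weeks in 12 h of light and 12 h of dark and for 7 more days with food in the dark phase alone. Livers of 5 mice were collected 2 h after lights on in Zeitgeber time and of 5 mice at 26 h. No label ties a replicate number to a time or says whether livers were pooled. Each of 6 groups has 2 libraries: RPC1 and RPC4 (subunits of Pol III), RPB2 (a subunit of Pol II), 2 histone groups and input, which is chromatin without immunoprecipitation. The libraries titled H3K4 carry an antibody field for H3K36me3 and those titled H3K36 one for H3K4me3, so the names H3K4-titled and H3K36-titled are used. Over the 532 stretches common to all files, depth in read equivalents (coverage summed and divided by 76 bp) was 82276 to 160705 for Pol III libraries, 14779 and 13848 for RPB2, 17033 and 26665 for H3K4-titled, 1754 and 1273 for H3K36-titled libraries, and 3563 and 3365 for input. Of 7 liver marker genes, Alb and Apoa1 among them, 0 overlap a stretch, so the labelled tissue could not be checked, and p-values measure the spread between libraries, which may be technical.

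The Rmrp stretch (mm9, chr4:43505510-43506080, 571 bp) holds the annotated RNase MRP RNA gene (43505660 to 43505930, minus strand, 271 bp) with 150 bp on either side. Rmrp has 275 bp in RefSeq (GRCm38.p6), so distances counted from its ends may be off by a few bp. A Ccdc107 transcript annotated as non-coding starts at 43505772, inside the RNA gene, and the nearest start of a coding Ccdc107 transcript, at 43506234, lies 304 bp from the first base of Rmrp and 154 bp outside the stretch. The Rpph1 stretch (mm9, chr14:51426973-51427597, 625 bp) holds a short RNA gene on the minus strand that the mm9 annotation leaves without a functional name (51427124 to 51427442, 319 bp). Without 150 bp at either end it spans 51427123 to 51427447, 325 bp, the length of Rpph1 in RefSeq (GRCm38.p6), where Rpph1 also neighbours Parp2. The Parp2 start, at 51427621, lies 174 bp from the first base of Rpph1 and 24 bp outside the stretch. Positions below count from 1 at the first base of each RNA gene, and negative positions lie towards the protein-coding gene.

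The promoter windows, from 250 bp before to 50 bp after the first base of the RNA gene, are shown because both hold an octamer, at unlike distances from the gene, and a short string at nearly the same distance. They were read from the mm9 genome, and capitals mark an octamer (ATTTGCAT on either strand) and the string ACCNTAA, in which N is any base.
Rmrp (chr4:43505881-43506180, minus strand): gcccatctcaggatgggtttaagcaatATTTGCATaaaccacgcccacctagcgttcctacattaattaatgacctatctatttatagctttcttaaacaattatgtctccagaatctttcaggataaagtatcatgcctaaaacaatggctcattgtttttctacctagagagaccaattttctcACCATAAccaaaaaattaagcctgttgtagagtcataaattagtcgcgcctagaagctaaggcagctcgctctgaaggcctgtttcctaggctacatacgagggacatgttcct
Rpph1 (chr14:51427398-51427697, minus strand): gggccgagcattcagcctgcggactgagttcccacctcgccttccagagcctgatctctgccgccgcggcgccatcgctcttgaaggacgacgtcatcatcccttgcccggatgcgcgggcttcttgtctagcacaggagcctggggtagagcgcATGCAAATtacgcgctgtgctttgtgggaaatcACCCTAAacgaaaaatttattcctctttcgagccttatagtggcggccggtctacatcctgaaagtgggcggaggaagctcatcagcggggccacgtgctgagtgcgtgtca

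The octamer, which the factor OCT1 is known to bind, stood at -223 to -216 in Rmrp and on the other strand at -95 to -88 in Rpph1. It occurs in 1.74% of 32851 RefSeq promoter windows of 300 bp (GRCm38.p6, both strands). ACCNTAA, chosen after the windows had been read, stood at -64 to -58 in Rmrp (accataa) and at -62 to -56 in Rpph1 (accctaa), and occurs in 6.98% of the promoter windows. A pair of longer consensus forms of the proximal sequence element, with 14 and 15 letters, had no match in either window (0.0122% and 0.00609% of promoters). TATAA matched on the other strand at -168 to -164 in Rmrp and at -28 to -24 in Rpph1 (24.9% of promoters, not capitalised above), and the core of the ZNF143 site had no match (1.88% of promoters). The windows differed in base composition: Rmrp had 40% G and C and 6 CpG, Rpph1 had 58.7% and 24 CpG, and the median of the promoters was 52.7% and 7 CpG.

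The 3′ ends, with the last 20 bp of the gene and the 40 bp after it, are shown for the T runs at which Pol III is known to stop (capitals, 4 or more T).
Rmrp (chr4:43505620-43505679, minus strand): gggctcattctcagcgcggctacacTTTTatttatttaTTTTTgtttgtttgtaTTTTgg
Rpph1 (chr14:51427083-51427142, minus strand): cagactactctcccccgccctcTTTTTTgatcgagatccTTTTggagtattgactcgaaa

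The first run began 6 bp after the mm9 end of Rmrp used here, with 4 T, and 3 bp after the end of Rpph1, with 6 T. Coverage past the genes was low in every Pol III library: the 150 bp downstream flank held 1.71% to 2.96% of the coverage of the Rmrp stretch and 0.837% to 6.1% of that of the Rpph1 stretch.

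The first comparison asked how much Pol III lay on each gene. Rmrp carried much more Pol III than Rpph1 in every Pol III library. Rmrp had a mean coverage as deposited of 92.5 and 59.8 reads per base in the RPC1 libraries and 118.0 and 100.2 in the RPC4 libraries, against 0.727 and 0.812 in input. Rpph1 had 8.03 and 7.99 in the RPC1 libraries and 15.2 and 11.8 in the RPC4 libraries, against 0.365 and 0.717 in input. All 4 Pol III libraries stood above both input libraries at either gene, and at Rmrp all 4 stood above every library of Rpph1. The Rmrp values rest on 449.2 to 886.5 read equivalents and the Rpph1 values on 65.7 to 125.1. Input rests on 5.46 and 6.1 read equivalents at Rmrp and on 3 and 5.89 at Rpph1. Since liver tissue is a mixture of cells, a gene occupied in fewer cells and a gene with less polymerase per cell cannot be told apart.

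**Figure D1:**
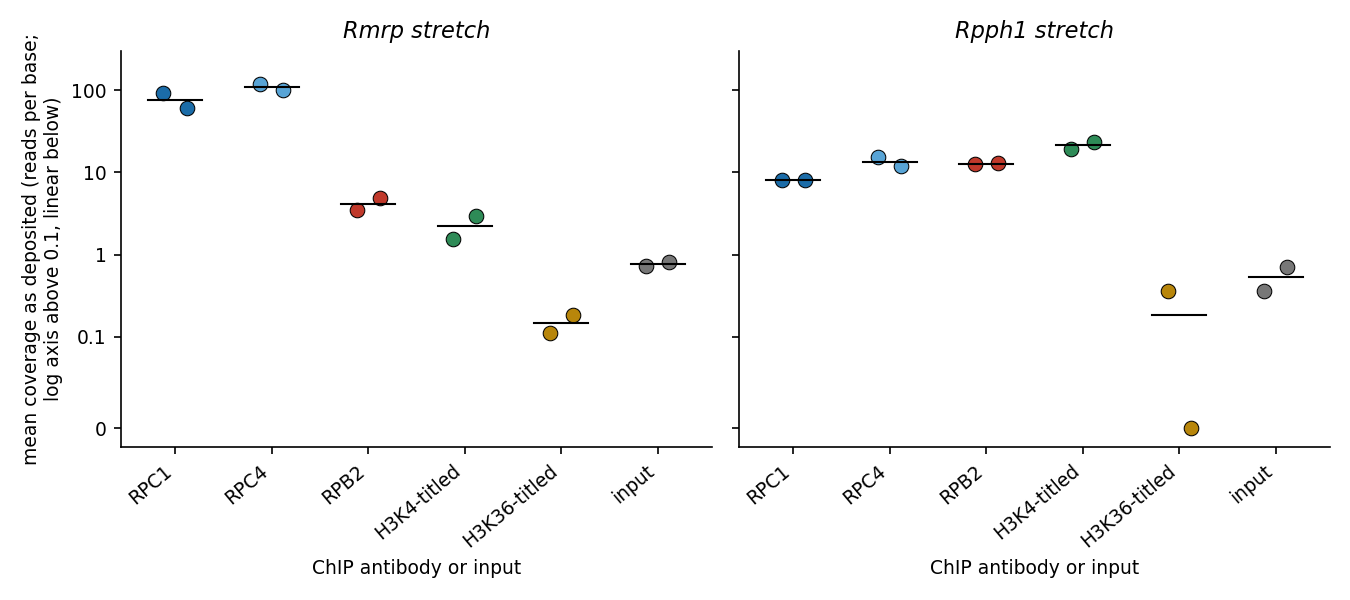
Mean coverage as deposited of the Rmrp stretch (left) and the Rpph1 stretch (right) in each of 12 libraries (points, 2 per group) with the group mean (bar), on an axis that is logarithmic above 0.1 and linear below. Pol III (RPC1 and RPC4) is the highest signal at Rmrp, at 59.8 to 118.0 reads per base, and H3K4-titled coverage is the highest at Rpph1, at 19.1 and 23.4.

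For the tests each library was divided by its own background, the trimmed mean coverage of the 25% of regions with the least Pol III, and called anchored coverage. limma was fitted to log2(anchored coverage + 0.353) of 397 regions that passed a filter on low coverage, which both genes passed, with Benjamini-Hochberg adjustment over all of them. Rmrp had a log2 fold of Pol III over input of 6.64 (SE 0.30, adjusted p = 5e-10, limma) and Rpph1 of 3.94 (SE 0.48, adjusted p = 5.29e-06, limma). Both calls stand against a background in which 71.5% of tested regions were higher in Pol III, so the call itself says little about these genes. Rmrp had rank 58 of 397 by this fold and Rpph1 rank 177, beside a median of 3.76 over all tested regions. Scaled by file totals in place of the background, which makes every value a share of the file and leaves 21.2% of regions higher and 54.2% lower, Rmrp stayed higher (log2 fold 1.69, SE 0.35, adjusted p = 0.00283, limma). Rpph1 then had a log2 fold of -0.78 (SE 1.21, adjusted p = 0.558, limma), so its direction depends on the scaling.

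The Pol III subunits did not differ in level beyond the error of the fit, which pools the spread of all 6 groups. The log2 difference RPC1 minus RPC4 was -0.13 at Rmrp (95% interval -0.90 to 0.63) and -0.32 at Rpph1 (-1.52 to 0.88), with an adjusted p of 0.968 in limma at both genes. With RPC1 and RPC4 libraries alone in the fit, the SE was 0.28 at Rmrp, against 0.35, and 0.31 at Rpph1, against 0.55. Neither gene passed in that fit (adjusted p = 0.823 and 0.722, limma). At Rmrp the difference was 0.13 with file totals, so its sign depends on the scaling. Of all 397 regions 0 differed in limma (0% of tested), with 3 at an unadjusted p under 0.05, and both intervals leave room for differences of over 1.5-fold. RPC1 lay farther towards the protein-coding gene than RPC4 at both genes. The 150 bp flank on that side held 23% and 26.3% of Rmrp coverage in the RPC1 libraries and 14.9% and 17.4% in the RPC4 libraries. At Rpph1 it held 25.4% and 21.6% in the RPC1 libraries and 12.3% and 13.2% in the RPC4 libraries. The subunits, with 2 libraries each, did not overlap in this share at either gene, and the difference was not tested. The share was not computed for other regions, so it cannot be called particular to these genes.

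The second comparison asked how much Pol II lay on the same stretches. The order of the genes was the opposite of that for Pol III. As deposited, RPB2 libraries covered Rmrp 3.46 and 4.84 times per base, against 0.727 and 0.812 in input. At Rpph1 it was 12.6 and 12.9 in the RPB2 libraries, against 0.365 and 0.717 in input. Both RPB2 libraries stood above both input libraries at each gene, and the RPB2 values at Rpph1 (103.5 and 106.3 read equivalents) were higher than those at Rmrp (26 and 36.4). The log2 fold over input was 2.45 at Rmrp (SE 0.35, adjusted p = 0.000107, limma) and 4.42 at Rpph1 (SE 0.55, adjusted p = 3.75e-05, limma), with 40.3% of tested regions higher and 0.252% lower. Rpph1 had rank 13 of 397 and Rmrp rank 84, and the median of all tested regions was 0.96. With file totals, where 6.55% of regions were higher and 33.0% lower, neither gene passed: the log2 fold was 0.36 at Rmrp (adjusted p = 0.487, limma) and 2.55 at Rpph1 (SE 1.39, adjusted p = 0.169, limma).

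The third comparison concerned the histone libraries. H3K4-titled coverage as deposited was much higher at Rpph1 than at Rmrp. Rmrp had 1.53 and 2.91 reads per base, against 0.727 and 0.812 in input. Rpph1 had 19.1 and 23.4 in the H3K4-titled libraries, against 0.365 and 0.717 in input. Both H3K4-titled libraries stood above input at either gene as deposited, by little at Rmrp, where they held 11.5 and 21.9 read equivalents. The log2 fold over input was 4.35 at Rmrp (SE 0.35, adjusted p = 1.24e-07, limma) and 8.05 at Rpph1 (SE 0.55, adjusted p = 2.7e-08, limma), with 65.0% of tested regions higher, 4.79% lower and a median of 3.29. Rpph1 had rank 17 of 397 and Rmrp rank 134. Beside these folds stands the background that each was divided by, 0.0652 and 0.107 reads per base for H3K4-titled libraries, against 0.769 and 0.946 for input. With file totals, where 11.1% of regions were higher and 61.2% lower, Rmrp turned to -1.12 (SE 0.40, adjusted p = 0.034, limma) and Rpph1 had 2.71 (SE 1.39, adjusted p = 0.112, limma).

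H3K36-titled libraries held almost nothing here. Over the Rmrp stretch they had 0.831 and 1.38 read equivalents, all of it in the downstream flank and none in the RNA gene or the flank towards Ccdc107. That downstream flank is the part with coverage that is not a whole number (below). Over Rpph1 the H3K36-titled libraries had 3 and 0, where a count of 0 allows up to 3. The log2 fold over input was -0.50 at Rmrp (adjusted p = 0.418, limma) and -0.36 at Rpph1 (adjusted p = 0.731, limma), beside 4.03% of tested regions higher and 8.56% lower. With file totals it was -1.17 (adjusted p = 0.0656, limma) and -2.25 (adjusted p = 0.229, limma), beside 4.28% higher and 18.9% lower. Without any scaling it was -1.62 at Rmrp (adjusted p = 0.00243, limma) and -1.24 at Rpph1 (adjusted p = 0.0272, limma), so the call depends on the scaling. These unscaled folds leave the unlike backgrounds uncorrected: 0.296 and 0.252 reads per base for H3K36-titled libraries, against 0.769 and 0.946 for input. They therefore cannot be read as a depletion at these genes. None of these fits called H3K36-titled signal higher at either gene.

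The genes can be compared inside each library without any scaling between libraries. Rmrp held 11.5, 7.48, 7.75 and 8.51 times the mean coverage of Rpph1 in RPC1 replicates 1 and 2 and RPC4 replicates 1 and 2. Rpph1 held 3.64 and 2.67 times the coverage of Rmrp in the RPB2 libraries and 12.5 and 8.04 times in the H3K4-titled libraries. In input, Rmrp held 1.99 and 1.13 times the coverage of Rpph1. All Pol III libraries thus had Rmrp higher, and all RPB2 and H3K4-titled libraries had Rpph1 higher. The Rpph1 stretch ends nearer to its facing coding start (24 bp) than the Rmrp stretch (154 bp), and the part this plays was not tested.

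On the log2 scale, with the pseudocount of 0.353, Rmrp minus Rpph1 averaged 3.09 ± 0.279 in Pol III libraries (SD, n = 4) and -1.59 ± 0.296 in RPB2 libraries (SD, n = 2). The difference was 4.67, with p = 0.133 in an exact two-sided permutation test over libraries. H3K4-titled libraries averaged -3.31 ± 0.445 (SD, n = 2), which differed from the Pol III libraries by -6.39 (exact permutation p = 0.133, two-sided). With 2 libraries against 4, a two-sided p of 0.133 is the smallest this test can give, so it cannot pass the threshold, although the groups did not overlap. Over all 12 libraries the log2 anchored coverages of Rmrp and Rpph1 had a Pearson's r of 0.657, as a description of libraries that fall into groups.

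**Figure D2:**
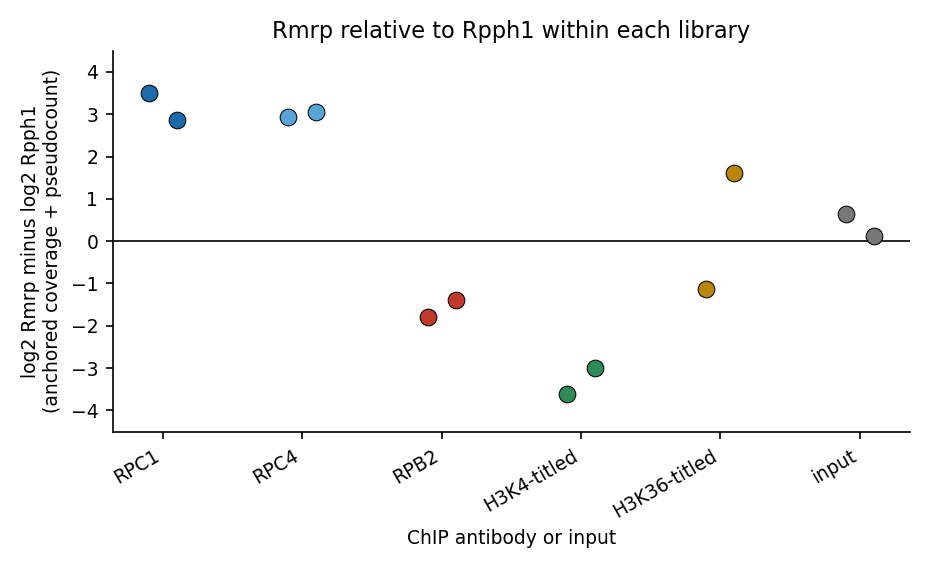
Log2 difference between Rmrp and Rpph1 (anchored coverage plus pseudocount) inside each library, 2 points per group, with a line at 0. The 4 Pol III libraries lie between 2.87 and 3.49, the RPB2 libraries at -1.80 and -1.38 and the H3K4-titled libraries at -3.62 and -2.99, while the H3K36-titled points rest on 3 or fewer read equivalents.

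Along the genes, Pol III formed a peak over the first part of each RNA gene. The mean profile of the 4 libraries was highest at position 51 in both genes, with 223.8 reads per base at Rmrp and 29.5 at Rpph1. At Rmrp the RPC1 libraries peaked at 26 and 20 and the RPC4 libraries at 69 and 51. Single libraries peaked between 46 and 72 at Rpph1. Coverage then fell along the gene: over the first 100 bp of Rmrp it was 215.7, 122.5, 263.0 and 221.4 in RPC1 replicates 1 and 2 and RPC4 replicates 1 and 2, and over the last 100 bp 86.4, 49.9, 135.1 and 119.8. Rpph1 had 17.5, 15.6, 33.6 and 29.5 over its first 100 bp in the same order and 5.2, 7.63, 17.6 and 9.48 over its last 100 bp. The RNA gene itself held 77.5% ± 4.95 of the stretch's Pol III coverage at Rmrp and 78.6% ± 5.14 at Rpph1 (SD, n = 4).

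RPB2 was laid out otherwise at Rpph1. Between positions -100 and 50 its mean coverage was lowest at -4, with 3 reads per base, and it was higher towards Parp2 and inside the gene. The 50 bp nearest to Parp2 had 28.3 and 16.1 reads per base in the RPB2 libraries, against 6.1, 8.02, 5.94 and 2.06 in the Pol III libraries. The 50 bp just before the gene had 7.1 and 8.26 in the RPB2 libraries, and the last 100 bp of the gene 16 and 13.3. H3K4-titled coverage likewise dipped between positions -100 and 50, to 7 reads per base at position -20 in the mean profile, and peaked inside it at position 142 with 48.5. At Rmrp, RPB2 lay mostly over the RNA gene, with its mean profile highest at position 62 (11.5 reads per base). It was 0 in both libraries from position -112 to -93 and higher again towards Ccdc107, with 3 reads per base in both libraries at -150. Single RPB2 libraries peaked at 203 to 222 (replicate 1, 26 read equivalents) and at 62 (replicate 2, 36.4), so no shared summit can be given.

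The flank that faces the protein-coding gene held 12.9% and 6.29% of RPB2 coverage at Rmrp, against 23%, 26.3%, 14.9% and 17.4% of Pol III coverage. The difference was -10.8 percentage points (exact permutation p = 0.133, two-sided, n = 2 and 4), and the RPB2 shares rest on 3.36 and 2.29 read equivalents. At Rpph1 the flank that faces Parp2 held 34% and 26.9% of RPB2 coverage (35.2 and 28.6 read equivalents), against 25.4%, 21.6%, 12.3% and 13.2% of Pol III coverage, a difference of 12.3 points (exact permutation p = 0.133, two-sided, n = 2 and 4). The groups did not overlap at either gene, in opposite directions, and 0.133 is again the smallest p the test can give. How often these groups fail to overlap in other regions was not computed. The flanks differ in reach, since the Rpph1 stretch ends 24 bp from the Parp2 start and the Rmrp stretch 154 bp from the coding Ccdc107 start. A difference between the genes and a difference in reach cannot be told apart here. Taking in the first 50 bp of the RNA gene moved the difference at Rpph1 to 1.1 points (exact permutation p = 0.8), with overlapping groups. Base by base, the mean profiles of Pol III and RPB2 had a Pearson's r of 0.858 at Rmrp and 0.372 at Rpph1, and those of Pol III and H3K4-titled libraries 0.547 and 0.842. The H3K4-titled replicates differed in layout at Rmrp, with 0.03 and 4.92 reads per base over the first 100 bp. Their maxima there lay at 191 to 217 and at 72 to 82, so 0.547 describes no shared shape. Neighbouring bases share reads, so the r values describe mean profiles and carry no test.

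**Figure D3:**
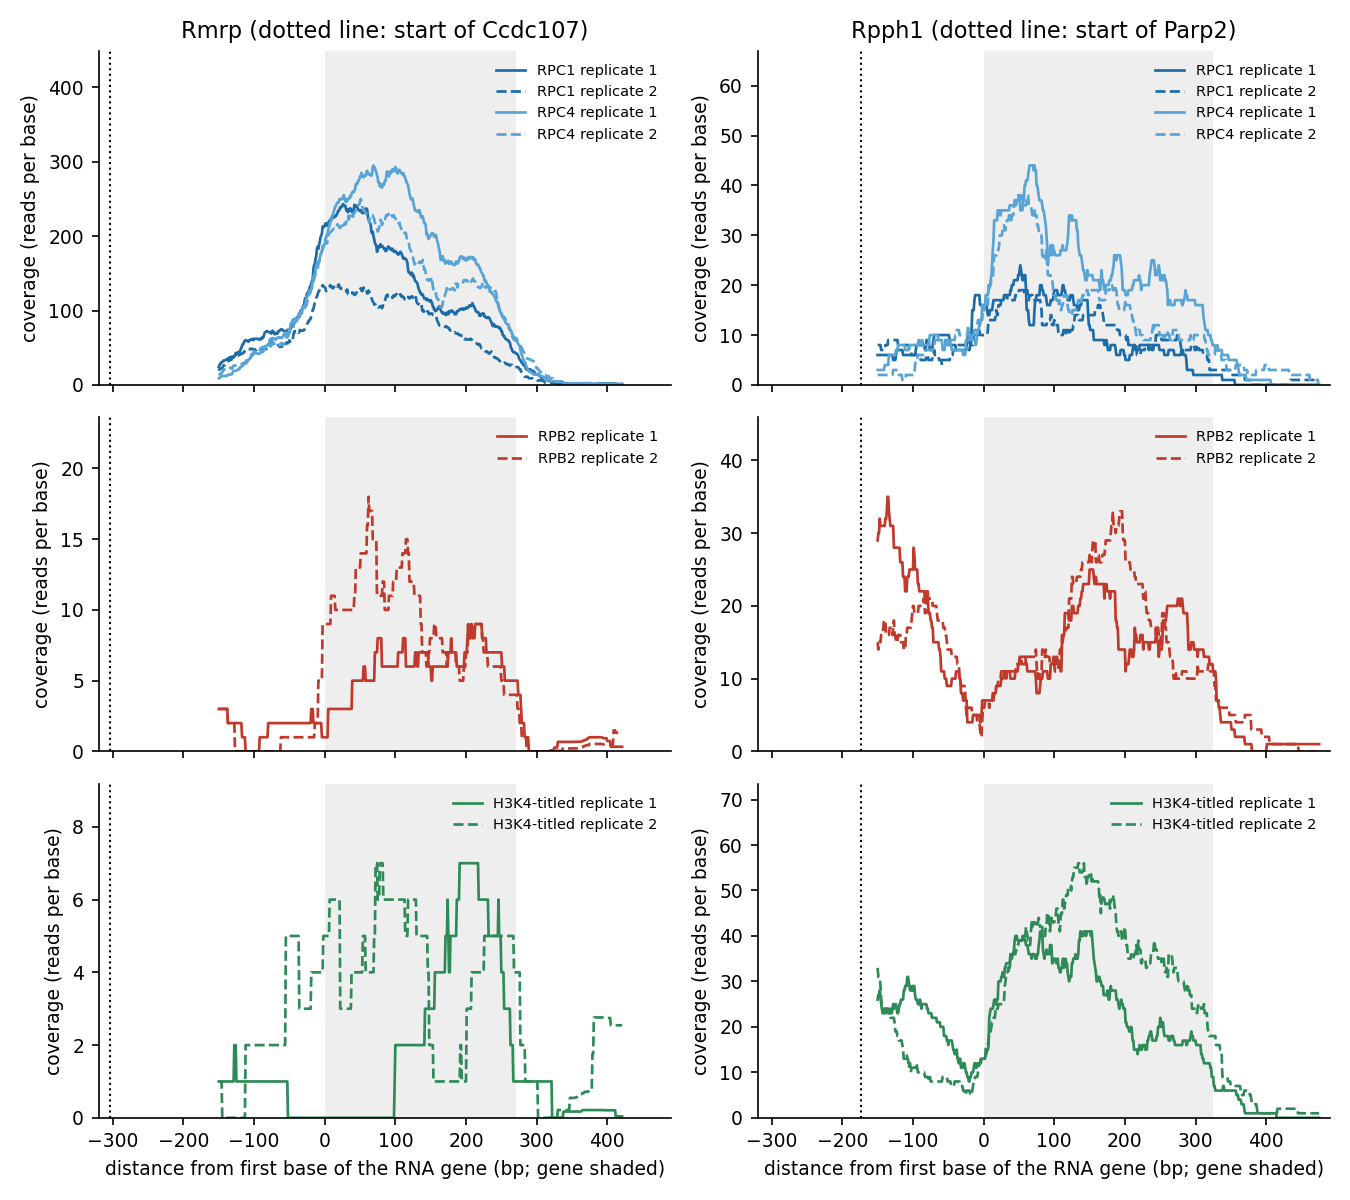
Coverage as deposited in each library along Rmrp (left) and Rpph1 (right), against the distance from the first base of the RNA gene (shaded), with Pol III above, RPB2 in the middle and H3K4-titled libraries below; the dotted line is the start of the facing coding gene and the vertical scales differ. The mean Pol III profile is highest at position 51 in both genes. At Rmrp the RPC1 libraries peak at 26 and 20 and the RPC4 libraries at 69 and 51. RPB2 at Rpph1 dips near position -4, is higher towards Parp2 and inside the gene, and is low past the end of the gene.

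Part of the Rmrp stretch had coverage that is not a whole number. Reads shared among several places could give such values, and this origin was not tested. Fractional coverage occurred at 104 of 571 bases (18.2%), positions 318 to 421, all past the end of the RNA gene. The RNA gene and the flank towards Ccdc107 had whole values throughout, and the Rpph1 stretch had 0 fractional bases, and the downstream flank held at most 2.96% of Pol III coverage at Rmrp. It held 5.6% and 2.59% of RPB2 coverage, 7.44% and 11.4% of H3K4-titled coverage and 100% of H3K36-titled coverage. The H3K36-titled values at Rmrp thus rest on a part of the stretch with fractional coverage.

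Among the other type 3 genes in the files (7SK, which restrains the elongation factor P-TEFb, 4 U6 and 1 U6atac region of the spliceosome, and 2 Y RNA regions), all 8 were higher than input in Pol III (71.5% of all tested regions), with a median log2 fold of 5.67 beside 3.76 over all tested regions. Rmrp, at 6.64, lay above that median and Rpph1, at 3.94, below it. In RPB2 7 of 8 were higher (40.3% of all regions), with a median of 2.34 beside 0.96. In H3K4-titled libraries 8 of 8 were higher (65.0% of all regions), with a median of 2.89, below the 3.29 of all regions. With file totals, 4 of the 8 were higher and 1 lower in Pol III, where 21.2% of all regions were higher and 54.2% lower. In RPB2 0 passed in either direction (6.55% and 33.0% of all regions), and in H3K4-titled libraries 1 was higher and 3 lower (11.1% and 61.2%). The RPB2 level minus the Pol III level, in log2 anchored coverage, was -4.19 at Rmrp, 0.48 at Rpph1 and between -4.54 (7SK) and -1.23 (a U6 region on chromosome 10) at the other 8. The H3K4-titled level minus the Pol III level was -2.28 at Rmrp, 4.11 at Rpph1 and between -5.44 (U6atac) and 2.86 (the same U6 region) at the other 8. Rpph1 lay above all 8 in both measures and Rmrp inside their range.

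Of the 8, a U6 region 107 bp from a start of Med16 was the one within 300 bp of a coding start, as Rmrp and Rpph1 are. It had a Pol III coverage of 40.3 ± 10.5 (SD, n = 4), RPB2 of 4.03 ± 0.88 and H3K4-titled coverage of 0.829 ± 0.0548 (SD, n = 2 each), against 0.91 ± 0.384 in input (SD, n = 2). As deposited, H3K4-titled coverage was thus far above input at Rpph1 and within the spread of input at this U6 region, although its anchored log2 fold was 2.88 (adjusted p = 1.93e-05, limma).

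Over all 397 tested regions, RPB2 minus Pol III placed Rpph1 at rank 27 and Rmrp at rank 335, beside a median of -2.54. H3K4-titled minus Pol III placed Rpph1 at rank 5 and Rmrp at rank 345, beside a median of -0.11. Among the 32 tested regions within 300 bp of a coding start, Rpph1 had rank 28 for Pol III level, 8 for RPB2 and 6 for H3K4-titled signal. Rmrp had rank 16 for Pol III, 24 for RPB2 and 26 for H3K4-titled signal. These ranks are descriptions, and no test of either gene against the other regions was made.

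**Figure D4:**
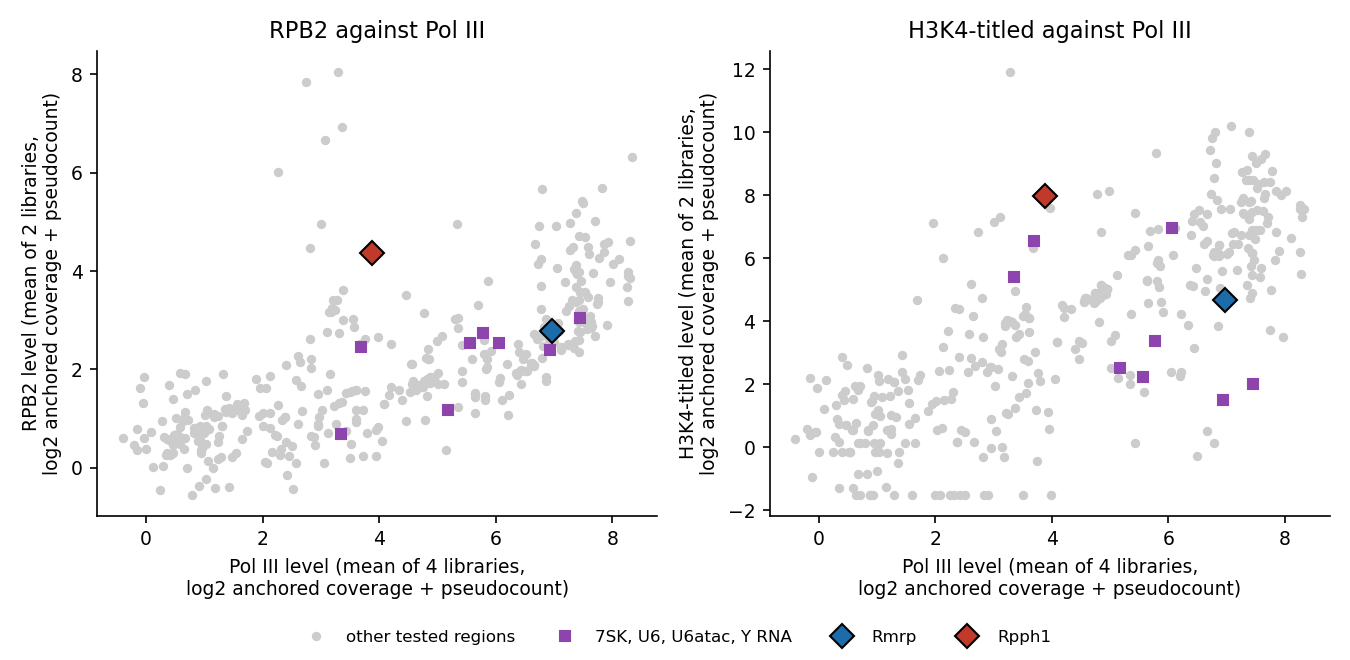
RPB2 level (left) and H3K4-titled level (right) against Pol III level over 397 tested regions, each axis the mean log2 of anchored coverage plus pseudocount, with other type 3 genes as squares. Rpph1 lies at a Pol III level of 3.88 with RPB2 at 4.36 and H3K4-titled signal at 7.99, and Rmrp at a Pol III level of 6.96 with 2.77 and 4.68.

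The regions whose pattern over the 12 libraries was most like that of each gene, by Pearson's r of log2 anchored coverage, are given by position. For Rmrp the 5 nearest had r of 0.987 to 0.997, led by a region on chromosome 13 (23528059 to 23530787), and included 1 on chromosome 10 (79711559 to 79712127) that holds a coding start of Ndufs7. All others of the 5, the chromosome 13 region included, lay 4498 to 42016 bp from the nearest coding start. For Rpph1 the 5 nearest had r of 0.936 to 0.967, led by a region on chromosome 14 (79881325 to 79881696) 250 bp from a start of Wbp4, and included 1 on chromosome 8 257 bp from a start of Ddx19a. The rest lay far from any coding start, at 27474 bp (chromosome 6), 16723 bp (chromosome 17) and 30329 bp (chromosome 7). The region by Wbp4 had a Pol III coverage of 82.5, RPB2 of 32.3, H3K4-titled coverage of 89 and input of 0.562, as group means. The chromosome 7 region had 6.55, 5.83, 1.31 and 2.96 in the same order. It was the only one of the 5 with H3K4-titled coverage below input as deposited, so a high r need not mean a like signal. These r values describe 12 libraries that fall into 6 groups and carry no test.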

How the data were processed

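Coverage was deposited by the authors as a signal per base for 12 libraries on build mm9, per the submitters' processing notes. Isolated reads appear as runs of 76 bp with the value 1. Neither aligner nor read filter is named in the labels used. Per the labels' protocols, library fragments were about 250 bp and had 15 PCR cycles. The limit given for a count of 0 covers counting error alone, while the limma intervals rest on the spread between libraries.

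Neighbouring stretches with gaps below 1000 bp formed 442 regions, of which 397 at or above the 0.1 quantile of mean scaled coverage were tested. 1 stretch listed in some files was left out. Libraries were scaled to the 10% trimmed mean over the 111 regions (25%) with the least Pol III, because totals of the Pol III libraries lie far above those of input. This scale uses Pol III itself and takes these regions as background in all libraries. The pseudocount, 0.353 (0.083 with file totals), is the 5th percentile of nonzero values and shrinks folds of low regions. limma 3.58.1 (R 4.3.3, trend, 6 residual degrees of freedom, 1 coefficient per group, two-sided, adjusted p under 0.05) was fitted to all 12 libraries. The same fit was run on simulated data in which the regions with the least Pol III held no change. That run therefore cannot check the choice of background for the scaling. Permutation tests used SciPy 1.17.1 under Python 3.11.15 or full enumeration. Genes, starts and strands came from GENCODE vM1 and sequences from NCBIM37, both mm9.

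The members, the type 3 list, the scaling and the tests were chosen with earlier results of these data known. Besides the members, genes were named as facing genes, as other type 3 genes and as neighbours of some of the 5 regions most like each member. The alternatives were other scalings, pseudocounts, filters, region values, fitted libraries, a replicate block and leaving out each library.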

Additional observations from a re-analysis of the deposited data

Results flagged for a closer look

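Rmrp minus Rpph1 in log2 anchored coverage was negative in both RPB2 libraries and positive in all 4 Pol III libraries, and the group means differed by -4.67 (RPB2 minus Pol III). The same contrast was negative in both H3K4-titled libraries, and their mean differed from that of the Pol III libraries by -6.39. The exact permutation tests of both differences are in the results above and could not pass the threshold with these numbers of libraries.

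Among the 4 Pol III libraries, anchored coverage of Rpph1 was 19.3 in RPC4 replicate 1, far from 12.3, 13.3 and 13.3 in the others. About 1 in 20 such groups is marked in this way by chance. Without that library the log2 fold of Pol III over input at Rpph1 was 3.82 (adjusted p = 4.8e-05, limma).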

How the results depend on the processing

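Of 154 values from the 10 limma results under the alternatives, 136 kept their direction and their side of the threshold. The 4 permutation results could not pass the threshold under any setting, so only their direction can be read: all 32 values kept it, although the flank difference at Rpph1 was 1.1 points with the flank widened by 50 bp, against 12.3. File totals gave log2 folds over input of -0.78 for Pol III at Rpph1 (reversed), 0.36 and 2.55 for RPB2 at Rmrp and Rpph1 and 2.71 for H3K4-titled signal at Rpph1 (no longer past the threshold), and -1.12 for H3K4-titled signal at Rmrp (reversed). Median of ratios, also without passing, gave 0.40 for Pol III at Rpph1, 1.31 and 3.47 for RPB2 at Rmrp and Rpph1, and 0.63 for H3K4-titled signal at Rmrp. The cause of these changes was not tested. With coverage as deposited, which leaves the lower background of the H3K36-titled libraries uncorrected, H3K36-titled signal passed below input at both genes (-1.62 and -1.24).

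RPC1 minus RPC4 at Rmrp changed sign with file totals and median of ratios (0.13 each) and in a window of 150 bp at the summit (0.02). Leaving out each library in turn, with a lone library taken to vary like the other groups, gave -0.39 to 0.11 for it and -0.62 to -0.04 at Rpph1. The same gave 6.51 to 6.79 and 3.72 to 4.14 for Pol III at Rmrp and Rpph1, 2.18 to 2.72 and 4.21 to 4.62 for RPB2, 4.25 to 4.46 and 7.83 to 8.26 for H3K4-titled signal, and -0.78 to -0.21 and -1.39 to 0.72 for H3K36-titled signal. The last range is set by the H3K36-titled libraries: -1.39 without replicate 1 passed the threshold, and 0.72 without replicate 2 reversed. For Rmrp minus Rpph1 the ranges were 4.47 to 4.88 (Pol III against RPB2) and -6.71 to -6.08 (H3K4-titled against Pol III), and for the facing flank -14.1 to -7.5 points at Rmrp and 8.81 to 15.9 at Rpph1.

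A replicate block on the numbers in the titles changed no call: Pol III over input was 6.64 and 3.94 at Rmrp and Rpph1 with it. Deviations of same-numbered libraries had a median correlation of 0.0256 over 15 pairs of groups (-0.121 to 0.0704). A low correlation cannot show that such libraries have separate origins, and no label ties a replicate number to a time. Whether same-numbered libraries share mice, chromatin or a collection time was not tested. Depth limits H3K36-titled and input values most.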
